A study of Homo sapiens with 6 samples.

Results

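Mitotic genes other than the kinesins were followed in libraries labelled T47D as a set of 42 listed genes that act in G2 and M phase, at the kinetochore or on the spindle. Members were taken by name. Transcripts were assigned to gene symbols with GENCODE release 44, their reads were summed per gene, and levels are given as CPM, reads scaled to library size after TMM normalization. All 42 members passed the filter on low counts and were among the 16442 genes tested, of 61279 genes in all. T47D is 1 hormone receptor-positive breast cancer cell line, wild type by its genotype label and PIK3CA-mutant by the study's description. By the labels, it was grown in RPMI with fetal bovine serum and received DMSO, the solvent, or 4 μmol/L MI-503, an inhibitor of the contact between menin and the methyltransferase MLL1, for 24 hours. Each label had 3 libraries from separate biological replicates, made from total RNA, and no deletion or transgene was part of the design.

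Mitosis is run by the cyclin B-CDK1 kinase, which rises in G2 and is shut off when the anaphase-promoting complex marks cyclin B and securin for destruction. The spindle checkpoint holds that complex back until every kinetochore, the protein plate that joins a chromosome to the spindle, is attached, after which separase opens cohesin, sister chromatids part and the cell divides. Most of these genes are transcribed late in the cell cycle under FOXM1, B-MYB (encoded by MYBL2) and the DREAM complex, so their RNA is commonly used as a readout of how many cells divide in luminal breast cancer.

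The libraries labelled DMSO went against their label. ESR1, the estrogen receptor gene, reached at most 0.194 CPM in them and was at 209.5, 240.3 and 296 CPM in the libraries labelled MI-503. KLK3, the prostate-specific antigen gene, was at 3762, 3687 and 3673 CPM with the DMSO label and without reads with the MI-503 label. Of 20 luminal breast markers 19 were higher with the MI-503 label and 1, TBX3, was lower, with summed levels of 1575 to 1772 CPM in the libraries labelled DMSO and 15433 to 21591 CPM in those labelled MI-503. All 17 prostate markers tested, of 18 listed, were lower, with sums of 7340.0 to 9522 and 191 to 199 CPM. Summed markers of blood cells lay at 0.0968 to 0.271 and 2.83 to 4.81 CPM, of fibroblasts at 30.6 to 54.7 and 78.0 to 120.1 CPM, and of basal epithelium at 10.8 to 14.1 and 13.2 to 18.0 CPM. Most of the fibroblast sum was COL1A1, at 36.1 and 96.1 CPM on average, while PDGFRB was lower with the MI-503 label, at 1.93 and 0.0523 CPM. Most of the basal sum was ACTA2, at 7.79 and 15.8 CPM, while KRT14 was lower, at 4.38 and 0.0 CPM. The libraries labelled DMSO thus lacked defining markers of T47D and carried those of prostate cells, and whether they came from another cell line was not tested. In every comparison that follows, an effect of MI-503 and any other difference between these groups of libraries cannot be told apart, and the groups are named by label only. In bulk RNA, fewer cells of a type and less RNA per cell cannot be told apart either. Libraries held 17404736 to 22168525 reads, of which mitochondrial genes took 1.37% to 7.12%, and a member had 192 to 17757 reads in a library.

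The promoters of the members that differed most are shown because late cell cycle promoters are known for a short element, the cell cycle genes homology region (CHR), often paired with CCAAT boxes that bind NF-Y. The CHR was searched as TTTGAA and TTCGAA and the CCAAT box as CCAAT, on both strands, in the 250 bases before each RefSeq start site. A CHR of the first kind on the other strand reads TTCAAA, and that of the second kind reads the same on both strands. A CCAAT box on the other strand reads ATTGG, and it may overlap a CHR. RefSeq windows on GRCh38.p14 were found for 35 of the 42 members; UBE2C, BUB3, FOXM1, TPX2, TTK, AURKA and BIRC5 had none in the table. The stretches below read 5′ to 3′ on the gene's strand, leave out bases inside annotated exons and have each match in capitals. ECT2, TOP2A, NEK2 and ESPL1 were taken by their small adjusted p, together with PRC1 and ANLN, whose matches lie in exon bases and are not printed. CCNB2, MKI67 and CDC20 were added after their values were seen, as 1 member that was higher and 2 that did not pass the test.
ECT2, chr3:172750476-172750681, plus strand: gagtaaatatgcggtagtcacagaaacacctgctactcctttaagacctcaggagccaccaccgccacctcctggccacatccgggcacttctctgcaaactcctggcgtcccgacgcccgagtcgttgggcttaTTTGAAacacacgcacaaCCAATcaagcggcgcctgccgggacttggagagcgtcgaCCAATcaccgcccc
TOP2A, chr17:40417897-40418146, minus strand: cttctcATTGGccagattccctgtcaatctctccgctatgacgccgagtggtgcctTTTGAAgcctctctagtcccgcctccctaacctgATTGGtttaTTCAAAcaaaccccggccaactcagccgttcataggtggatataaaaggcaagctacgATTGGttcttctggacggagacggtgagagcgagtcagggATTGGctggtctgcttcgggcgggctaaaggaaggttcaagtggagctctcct
NEK2, chr1:211675631-211675748, minus strand: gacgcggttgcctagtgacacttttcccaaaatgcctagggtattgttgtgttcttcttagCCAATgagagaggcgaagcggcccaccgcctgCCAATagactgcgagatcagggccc
ESPL1, chr12:53268049-53268298, plus strand: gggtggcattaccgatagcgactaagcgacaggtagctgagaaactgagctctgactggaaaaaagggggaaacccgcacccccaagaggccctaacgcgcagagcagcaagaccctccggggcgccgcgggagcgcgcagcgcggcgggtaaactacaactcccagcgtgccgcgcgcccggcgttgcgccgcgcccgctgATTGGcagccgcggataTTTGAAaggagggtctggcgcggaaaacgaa
CCNB2, chr15:59104896-59105125, plus strand: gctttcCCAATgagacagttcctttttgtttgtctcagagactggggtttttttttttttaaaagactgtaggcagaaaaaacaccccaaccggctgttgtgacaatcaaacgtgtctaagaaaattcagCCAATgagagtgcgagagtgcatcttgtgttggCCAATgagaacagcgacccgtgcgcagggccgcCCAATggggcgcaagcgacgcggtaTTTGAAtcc
MKI67, chr10:128126424-128126673, minus strand: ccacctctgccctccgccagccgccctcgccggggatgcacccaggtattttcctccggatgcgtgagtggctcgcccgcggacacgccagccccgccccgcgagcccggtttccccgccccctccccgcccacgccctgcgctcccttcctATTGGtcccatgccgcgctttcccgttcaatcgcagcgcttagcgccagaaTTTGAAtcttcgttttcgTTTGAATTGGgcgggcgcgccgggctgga
CDC20, chr1:43358731-43358980, plus strand: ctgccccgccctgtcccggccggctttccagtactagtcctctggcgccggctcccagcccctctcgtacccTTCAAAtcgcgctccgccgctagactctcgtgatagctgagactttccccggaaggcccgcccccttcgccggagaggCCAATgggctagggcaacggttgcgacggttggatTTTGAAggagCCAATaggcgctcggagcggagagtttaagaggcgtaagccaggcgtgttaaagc
Beside ECT2 and ESPL1, which held a CHR and at least 1 CCAAT box, MKI67 and CDC20 each held 2 of either element, and in MKI67 a CHR ran into a CCAAT box on the other strand. TOP2A held 2 CHR and 4 CCAAT boxes, CCNB2 held 1 and 4, and NEK2 held 2 CCAAT boxes and no CHR. At least 1 CHR lay in a window of 21 of the 35 members (60.0%), a CCAAT box in 27 (77.1%) and both in the same window in 17 (48.6%). Per window, of which some genes have several that overlap, a CHR was in 23 of 46 member windows (50.0%) and in 14.3% of all 35116 windows, a CCAAT box in 69.6% and 32.0%, and both in 39.1% and 5.1%. Among the 18 members with a window that were higher with the MI-503 label, 13 had a CHR, 15 a CCAAT box and 10 both, and among the other 17 members 8 had a CHR, 12 a CCAAT box and 7 both. These are matches of letters and not binding sites.

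The libraries labelled MI-503 were compared with those labelled DMSO, in which an effect of the drug cannot be told apart from other differences. With the MI-503 label 22 of the 42 members were higher and 2, FOXM1 and CENPE, were lower, and 18 did not pass. The calls are from edgeR's quasi-likelihood test, at a Benjamini-Hochberg adjusted p under 0.05 over all genes tested. Of all genes tested 31.7% were higher and 31.2% were lower, so that 62.9% differed in either direction. The largest differences were those of TOP2A, ECT2, NEK2, UBE2C, ESPL1 and ANLN, each about 3 to 4 times as high with the MI-503 label. The median log2 fold change of the members was 0.63 (quartiles 0.17 and 1.08, range −0.83 to 1.93), against −0.004 over all genes tested (quartiles −0.90 and 0.91). The members' summed level was 3449.9, 4140.3 and 4341 CPM in the libraries labelled DMSO and 7179.6, 7434 and 6398 CPM in those labelled MI-503, and the sums did not overlap.

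The differences were moderate in size. A log2 fold change over 1 was reached by 12 higher members, against 22.3% of all genes, and no member was lower than −1, against 22.0%. At the study's threshold of a log2 fold change beyond 2 in size 0 members passed with edgeR, DESeq2 or limma. Of all genes 24.3% passed that threshold by edgeR. Without MI-503 replicate 3, TOP2A passed it with a log2 fold change of 2.08. At any fold, 25 of the 42 members had an unadjusted edgeR p under 0.05, against 10936 of all 16442 genes. The libraries of the labels did not overlap in 23 members that were higher and 3 that were lower with the MI-503 label, whereas this held for 34.7% and 34.0% of all genes.

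**Figure D1:**
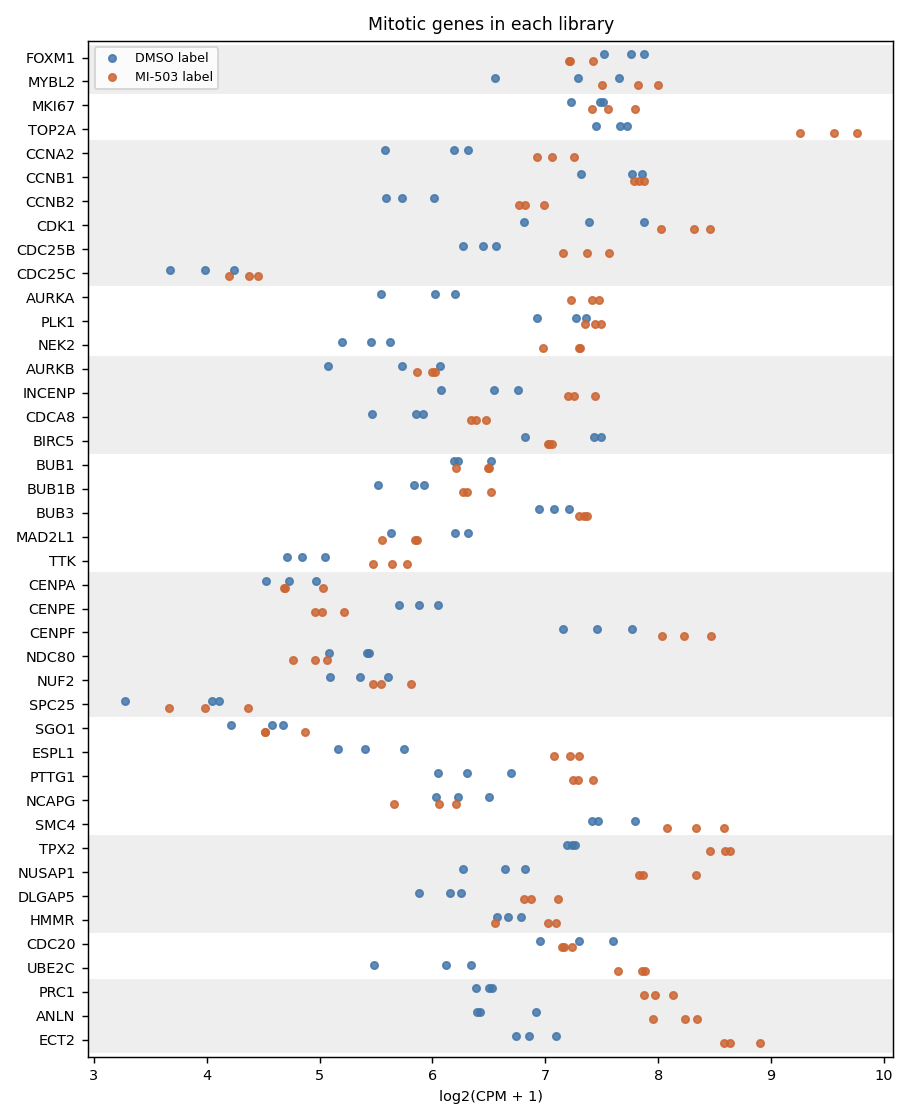
Levels of the 42 mitotic genes as log2(CPM + 1) on the horizontal axis, with 1 point per library, blue for the DMSO label and orange for the MI-503 label, and grey bands separating the roles. The points of the labels stand apart for 26 genes, 23 of them higher with the MI-503 label, and TOP2A, at 174 to 210.1 CPM against 610.4 to 866 CPM, is among the widest gaps.

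**Figure D2:**
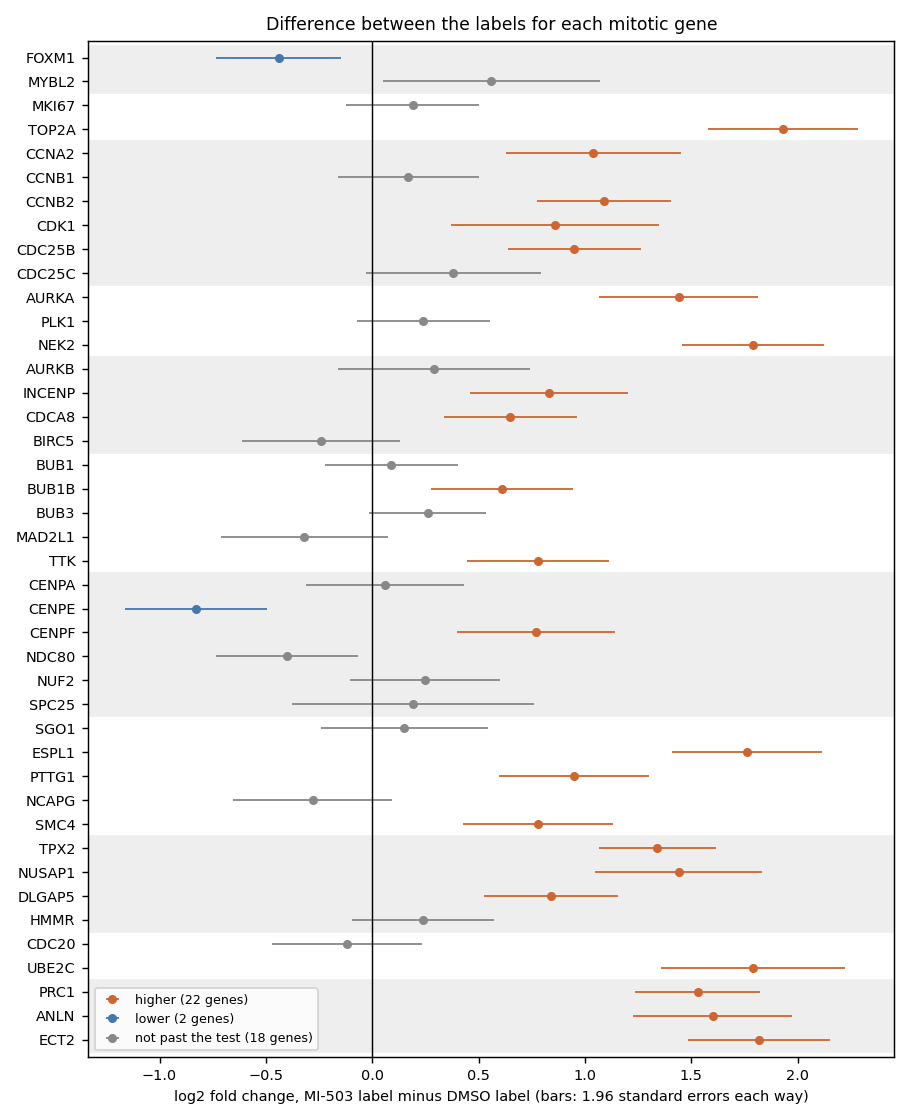
Log2 fold change of each mitotic gene, MI-503 label minus DMSO label (horizontal axis), with bars of 1.96 standard errors each way from edgeR with 3 libraries per label, orange for higher, blue for lower and grey for not past the test. The 22 higher genes run from 0.61 for BUB1B to 1.93 for TOP2A, and the 2 lower genes are FOXM1 and CENPE.

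Cytokinesis genes stood highest as a group, with all 3 members higher and a median log2 fold change of 1.60. For this and each role below, 31.7% of all genes tested were higher and 31.2% lower, and a role held only 2 to 6 members. ECT2 encodes the exchange factor that switches on RhoA at the cell equator. It was at 115, 136 and 106 CPM with the DMSO label against 383, 478 and 396 CPM (log2 fold change 1.82 ± 0.17 SE, edgeR adjusted p = 1.02e-05). Every library labelled MI-503 was far above every library labelled DMSO, and ECT2, on chromosome 3 of GRCh38 from 172750682 to 172821474, had the smallest adjusted p of the members. PRC1, which bundles the microtubules of the central spindle, was at 82.8, 91.2 and 89.8 CPM and at 250.5, 280.0 and 233 CPM (log2 fold change 1.53 ± 0.15 SE, edgeR adjusted p = 1.26e-05). ANLN, which encodes the actin-binding scaffold anillin of the contractile ring, was at 84.9, 83.0 and 119.7 CPM and at 300.4, 323 and 247 CPM (log2 fold change 1.60 ± 0.19 SE, edgeR adjusted p = 6.05e-05). For both genes the labels did not overlap, and the libraries of PRC1 were the closer to each other within a label. A read-through gene on the same strand as PRC1, ENSG00000284946, was at 17.6 and 38.1 CPM on average, and reads of the 2 loci may have been divided between them by the quantification.

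TOP2A and MKI67, the standard proliferation markers, differed from each other. TOP2A encodes topoisomerase II alpha, which untangles sister DNA, and lies on chromosome 17 from 40388525 to 40417896. It was at 210.1, 201 and 174 CPM with the DMSO label and at 866, 751 and 610.4 CPM with the MI-503 label, with means of 195 ± 18.9 and 742 ± 128 CPM (SD, n = 3 each, log2 fold change 1.93 ± 0.18 SE, edgeR adjusted p = 1.08e-05). MKI67 encodes Ki-67, the coat protein of mitotic chromosomes. It was at 181, 149 and 178 CPM and at 221, 187 and 169 CPM (log2 fold change 0.19 ± 0.16 SE, 95% interval −0.13 to 0.50, edgeR adjusted p = 0.332). The labels overlapped for MKI67, and its interval lay wholly below that of TOP2A, 1.58 to 2.28. Per length, the ratio of TOP2A to MKI67 TPM, which scales reads by transcript length and by library, was 3.07 ± 0.335 with the DMSO label and 10.6 ± 0.831 with the MI-503 label (SD, n = 3 each), without overlap.

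Of the mitotic cyclins, CDK1 and the CDC25 phosphatases, 4 of 6 were higher, with a median log2 fold change of 0.90. CCNB2 encodes cyclin B2 and was at 47.2, 63.5 and 52.0 CPM and at 112, 126 and 108 CPM (log2 fold change 1.09 ± 0.16 SE, edgeR adjusted p = 0.000254). CCNA2, the gene of cyclin A2, which drives S and G2 phase, was at 46.7, 72.1 and 78.5 CPM and at 132, 152 and 121 CPM (log2 fold change 1.04 ± 0.21 SE, edgeR adjusted p = 0.00152). Both cyclins were higher in each library labelled MI-503 than in any labelled DMSO. CCNB1, the gene of cyclin B1, was instead at 158, 231 and 217 CPM and at 226, 219.8 and 233 CPM (log2 fold change 0.17 ± 0.17 SE, 95% interval −0.17 to 0.50, edgeR adjusted p = 0.414). The libraries labelled MI-503 lay within 1 narrow range, 226 ± 6.57 CPM (SD, n = 3), which DMSO replicate 2 shared. The ratio of CCNB1 to CCNB2 TPM was 3.25, 3.38 and 4.33 with the DMSO label and 1.94, 1.54 and 2.06 with the MI-503 label.

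CDK1 encodes the catalytic kinase of the pair and was at 111, 166 and 234 CPM with the DMSO label and at 318, 350.4 and 259.9 CPM in the MI-503 group (log2 fold change 0.86 ± 0.25 SE, edgeR adjusted p = 0.0131). The labels did not overlap, though DMSO replicate 3 came close, and without MI-503 replicate 2 the adjusted p was 0.0505. The ratio of CCNB1 to CDK1 TPM was 1.50 ± 0.326 and 0.824 ± 0.155 (SD, n = 3 each), without overlap, and that of CCNA2 to CDK1 was 0.238 ± 0.0355 and 0.257 ± 0.0145 (SD, n = 3 each), with overlap. CDC25B and CDC25C encode phosphatases that activate CDK1. CDC25B was at 76.4, 86.3 and 93.5 CPM and at 188, 164 and 142 CPM (log2 fold change 0.95 ± 0.16 SE, edgeR adjusted p = 0.000558), and CDC25C had a log2 fold change of 0.38 (95% interval −0.03 to 0.80, edgeR adjusted p = 0.14) at 11.8 to 20.9 CPM. CDC25C overlaps FAM53C on the opposite strand, at 107 and 106 CPM, and no strand of counting is stated, so reads of the shared bases cannot be told apart. The same holds for CCNA2 with EXOSC9, at 29.5 and 24.1 CPM, for ANLN with MATCAP2, at 14.1 and 23.8 CPM, and for NCAPG with LCORL, at 18.3 and 33.4 CPM.

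Among the other mitotic kinases 2 of 3 were higher, and the median log2 fold change was 1.44. NEK2, a kinase that splits the centrosomes, was at 42.9, 48.2 and 35.7 CPM and at 156, 157 and 125 CPM (log2 fold change 1.79 ± 0.17 SE, edgeR adjusted p = 1.48e-05). AURKA, the spindle-pole kinase Aurora A, was at 45.8, 64.1 and 72.3 CPM and at 169, 177 and 149 CPM (log2 fold change 1.44 ± 0.19 SE, edgeR adjusted p = 0.000113). Neither overlapped between the labels. PLK1, which acts at centrosomes, kinetochores and the midbody, was at 120.3 to 163 CPM and at 162 to 179 CPM, a log2 fold change of 0.24 (95% interval −0.07 to 0.54, edgeR adjusted p = 0.218).

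The chromosomal passenger complex corrects faulty attachments at centromeres, and 2 of its 4 members were higher, against 31.7% of all genes tested. INCENP, its scaffold, was at 66.3, 92.6 and 107 CPM and at 173, 152 and 146 CPM (log2 fold change 0.83 ± 0.19 SE, edgeR adjusted p = 0.00365). CDCA8, which encodes borealin, was higher, with a log2 fold change of 0.65 (edgeR adjusted p = 0.00604). The labels did not overlap for either gene. AURKB, its kinase Aurora B, and BIRC5, which encodes survivin, stood at log2 fold changes of 0.29 (95% interval −0.17 to 0.74) and −0.24 (95% interval −0.61 to 0.12), at edgeR adjusted p-values of 0.31 and 0.281. The TPM ratio of AURKA to AURKB was 0.645 ± 0.0936 and 1.49 ± 0.122, and that of BIRC5 to INCENP was 3.04 ± 0.283 and 1.31 ± 0.0999 (SD, n = 3 each). Each of these ratios separated the labels.

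Of the spindle checkpoint genes 2 of 5 were higher, against 31.7% of all genes tested, and 3 did not pass the test. Their median log2 fold change was 0.26. TTK encodes MPS1, the kinase that starts the checkpoint signal, and was at 25.2, 32.0 and 27.8 CPM and at 49.0, 53.6 and 43.5 CPM (log2 fold change 0.78 ± 0.17 SE, edgeR adjusted p = 0.00241). BUB1B, which encodes the inhibitor BUBR1, was higher, with a log2 fold change of 0.61 (edgeR adjusted p = 0.00888). PAK6, which overlaps BUB1B on the same strand, was at 0.0787 and 9.82 CPM on average, and its part in the value of BUB1B was not tested. The kinase gene BUB1, its partner BUB3 and MAD2L1, which encodes the inhibitor MAD2, stood at log2 fold changes of 0.09, 0.26 and −0.32, at edgeR adjusted p-values of 0.64, 0.136 and 0.188. BUB3 did not overlap between the labels, at 122 to 147 CPM and 156 to 164 CPM, without passing the test.

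Centromere and kinetochore members differed in both directions, with 1 higher, 1 lower and 4 not past the test. Of all genes tested, 31.7% were higher and 31.2% lower. CENPE encodes a motor that carries chromosomes to the spindle equator and is itself of the kinesin type, although it was listed with the kinetochore genes. It was at 65.4, 57.9 and 51.0 CPM with the DMSO label and at 30.2, 36.2 and 31.5 CPM in the MI-503 group (log2 fold change −0.83 ± 0.17 SE, edgeR adjusted p = 0.00151). CENPE was lower in each library labelled MI-503 than in any labelled DMSO, and it had the lowest mean TPM of the members with either label. CENPF, a large protein of the outer kinetochore, was at 217, 175 and 142 CPM and at 352, 299 and 261 CPM (log2 fold change 0.77 ± 0.19 SE, edgeR adjusted p = 0.00555). NDC80, NUF2 and SPC25 encode subunits of the NDC80 complex, which grips the microtubule, and CENPA the histone that marks the centromere. Their log2 fold changes were −0.40, 0.25, 0.19 and 0.06, at edgeR adjusted p-values of 0.0719, 0.258, 0.588 and 0.792. SLC35F6, which overlaps CENPA on the same strand, was at 62.7 and 41.2 CPM on average, and its part in the value of CENPA was not tested. The proteins of NDC80 and NUF2 form a dimer, and the TPM ratio of their genes was 0.810 ± 0.0771 and 0.557 ± 0.0779 (SD, n = 3 each), without overlap. The ratio of SPC25 to NUF2 TPM overlapped, at 0.527 ± 0.166 and 0.517 ± 0.12 (SD, n = 3 each). With length offsets in the fit, NDC80 had a log2 fold change of −0.17 (edgeR adjusted p = 0.457).

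For cohesion release and condensin, 3 of 5 members were higher and the median log2 fold change was 0.78. ESPL1 encodes separase, the protease that cuts cohesin, and was at 34.9, 41.4 and 52.7 CPM and at 156, 134 and 148 CPM (log2 fold change 1.76 ± 0.18 SE, edgeR adjusted p = 2.26e-05). PTTG1 encodes securin, its inhibitor, and was at 65.3, 103 and 78.3 CPM and at 151, 170.2 and 155 CPM (log2 fold change 0.95 ± 0.18 SE, edgeR adjusted p = 0.00129). Both were higher with the MI-503 label. The TPM ratio of PTTG1 to ESPL1 was 20.9, 25.7 and 15.0 with the DMSO label and 11.0, 11.9 and 10.1 with the MI-503 label. SMC4, a core subunit of condensin, which compacts chromosomes, was higher, with a log2 fold change of 0.78 (edgeR adjusted p = 0.00351). IFT80 and TRIM59 overlap SMC4 on the opposite strand. They were at 34.0 and 31.6 CPM with the DMSO label and 65.1 and 55.1 CPM with the MI-503 label. The condensin subunit gene NCAPG and SGO1, which encodes the cohesin protector shugoshin, stood at log2 fold changes of −0.28 and 0.15 (edgeR adjusted p = 0.228 and 0.542).

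Spindle assembly genes were higher in 3 of 4 cases, with a median log2 fold change of 1.09. TPX2, which activates Aurora A and nucleates microtubules near chromosomes, was at 145, 149.7 and 153 CPM and at 385, 396 and 351 CPM (log2 fold change 1.34 ± 0.14 SE, edgeR adjusted p = 2.32e-05). The libraries labelled DMSO lay close together, at 149 ± 4.06 CPM (SD, n = 3), and the TPM ratio of TPX2 to AURKA overlapped, at 1.25 ± 0.259 and 1.08 ± 0.0597 (SD, n = 3 each). NUSAP1, which binds and bundles spindle microtubules, was at 76.0, 99.1 and 112 CPM and at 227, 322 and 232 CPM (log2 fold change 1.44 ± 0.20 SE, edgeR adjusted p = 0.000166). OIP5-AS1, a long noncoding RNA on the same strand that overlaps NUSAP1, was at 103 and 259 CPM on average, and its part in the value of NUSAP1 was not tested. DLGAP5, which encodes the microtubule-stabilizing protein HURP, was higher, with a log2 fold change of 0.84 (edgeR adjusted p = 0.00125). HMMR, a spindle-pole protein and hyaluronan receptor, stood at 0.24 (95% interval −0.10 to 0.58, edgeR adjusted p = 0.261).

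The partners of the anaphase-promoting complex differed, with 1 higher and 1 not past the test. UBE2C, the ubiquitin-conjugating enzyme that works with it, was at 43.8, 68.7 and 80.1 CPM and at 231, 235 and 199 CPM (log2 fold change 1.79 ± 0.22 SE, edgeR adjusted p = 7.32e-05). CDC20, its activator and the target of the checkpoint, was at 123, 156 and 193 CPM and at 143, 141 and 149.5 CPM (log2 fold change −0.12 ± 0.18 SE, 95% interval −0.46 to 0.23, edgeR adjusted p = 0.585). The libraries labelled MI-503 fell inside the range of those labelled DMSO for CDC20 and far above it for UBE2C. The TPM ratio of UBE2C to CDC20 was 0.935, 1.23 and 1.12 with the DMSO label and 4.47, 4.33 and 3.70 with the MI-503 label. A pseudogene, UBE2CP5, was at 3.07 and 1.91 CPM, and the other annotated pseudogenes and close paralogs of members were each under 0.2 CPM on average.

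Of the 2 transcription factors that drive these genes, 1 was lower and 1 did not pass the test. FOXM1, the forkhead factor of G2 and M phase, was at 182, 216 and 233 CPM and at 147, 170.2 and 148 CPM (log2 fold change −0.44 ± 0.15 SE, edgeR adjusted p = 0.0292). All libraries labelled MI-503 were below those labelled DMSO, by a small margin, and the call was lost in 6 of 15 alternatives, among them each fit without 1 library other than DMSO replicate 1, with adjusted p = 0.00393 to 0.132 over the alternatives. MYBL2 was at 92.9, 155 and 200.4 CPM and at 180.3, 254 and 225 CPM (log2 fold change 0.56 ± 0.26 SE, edgeR adjusted p = 0.086), and it passed the test in 3 of 15 alternatives. ITFG2, on the strand opposite FOXM1, was at 11.9 and 23.5 CPM on average.

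Per length, PTTG1 and CCNB1 led the members with the DMSO label, at 237 ± 48.2 and 226 ± 37.2 TPM, before UBE2C at 169 ± 40.8, CDK1 at 158 ± 54.7 and CDC20 at 154 ± 25.3 TPM (SD, n = 3 each). PTTG1 and CCNB1, and likewise UBE2C, CDK1 and CDC20, lay within their spread of each other. With the MI-503 label UBE2C led at 546 ± 40.7 TPM, followed by PTTG1 at 429 ± 21.3, CDK1 at 278 ± 34.2, CCNB1 at 226 ± 13.8 and NUSAP1 at 210.3 ± 34.2 TPM (SD, n = 3 each). There the gap between UBE2C and PTTG1 was larger than their spreads, while CCNB1 and NUSAP1 lay within theirs. CDC20 was at rank 5 with the DMSO label and rank 13 with the MI-503 label, and FOXM1 at ranks 9 and 25. CENPE was last with both labels, at 10.4 ± 2.31 and 5.53 ± 0.393 TPM (SD, n = 3 each).

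The libraries of a label also differed among themselves across the set. DMSO replicate 1 was the lowest of its label for 34 of the 42 members, with a median deviation of −0.225 log2 units from the label's mean, and DMSO replicate 3 was the highest for 24. With the MI-503 label, replicate 2 was the highest for 30 members and replicate 3 the lowest for 26. Of all 16442 genes, DMSO replicate 1 was the lowest of its label for 5845 and DMSO replicate 3 the highest for 5272. MI-503 replicate 2 was the highest of its label for 4529 of all genes and MI-503 replicate 3 the lowest for 5212. A list of 34 S phase and replication genes varied more, with DMSO replicate 1 the lowest for 28 and DMSO replicate 3 the highest for 33, at median deviations of −0.52 and 0.487 log2 units. Without DMSO replicate 1 the members' median log2 fold change was 0.51, with 22 higher and 5 lower, and BIRC5, MAD2L1 and NDC80 then passed the test as lower, with log2 fold changes of −0.43, −0.51 and −0.51 (edgeR adjusted p = 0.0216, 0.0224 and 0.0288).

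**Figure D3:**
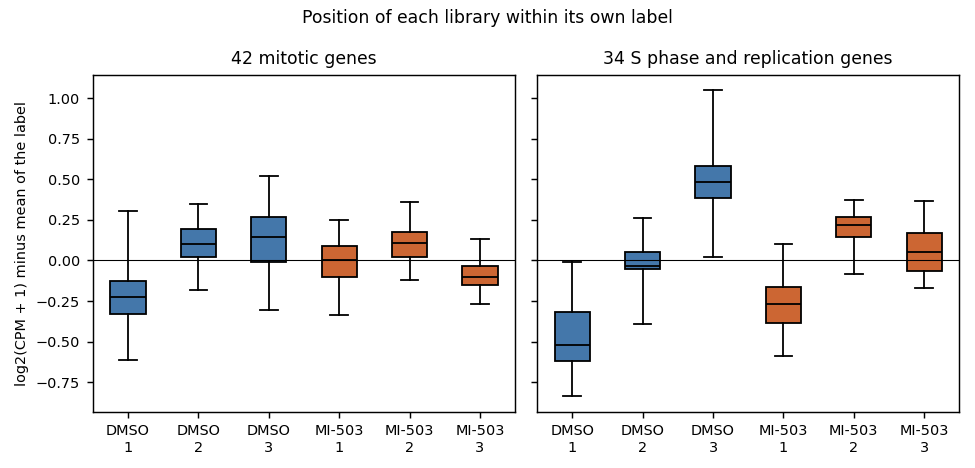
Deviation of each library from the mean of its own label, as log2(CPM + 1), for the 42 mitotic genes (left) and 34 S phase and replication genes (right), with boxes at the quartiles, lines at the medians and whiskers over the whole range. DMSO replicate 1 lies lowest among the libraries labelled DMSO in both panels, with medians of −0.225 and −0.52.

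Genes with related roles were counted from lists written with the members. The shares to set beside each count are those of all genes tested, 31.7% higher and 31.2% lower. Of 34 other G2 and M phase genes 15 were higher, 3 lower and 16 not past the test, with a median log2 fold change of 0.35. By adjusted p the smallest were those of CEP55, a midbody protein, CIT, a midbody kinase, and RACGAP1, the partner of ECT2 at the central spindle, at log2 fold changes of 1.71, 2.02 and 1.36 (edgeR adjusted p = 1.29e-05, 1.45e-05 and 2.44e-05). Of 12 mitotic kinesins 9 were higher and 0 lower by edgeR, with a median of 0.80. At an unadjusted edgeR p under 0.05 there were 9 kinesins, against 10936 of all 16442 genes. Of 32 other kinetochore genes 11 were higher (34.4%) and 6 lower (18.8%), with a median of 0.11. CENPN, which reads CENP-A nucleosomes, was lower by 2.76 on the log2 scale (edgeR adjusted p = 9.07e-07). KNTC1, of the RZZ checkpoint complex, was higher, with a log2 fold change of 1.34 (edgeR adjusted p = 0.000128).

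Of 17 subunits and regulators of the anaphase-promoting complex 2 were higher, 4 lower and 11 not past the test, with a median log2 fold change of −0.01. The subunit genes ANAPC1 and CDC16 were lower by 1.13 and 0.73 on the log2 scale and CDC23 was higher by 0.63 (edgeR adjusted p = 0.000107, 0.00153 and 0.00474). Of 18 other condensin and cohesin genes 7 were higher and 4 lower, with a median of −0.07. WAPL, which releases cohesin, was higher, with a log2 fold change of 1.81 (edgeR adjusted p = 6.56e-06). The cohesin cofactor gene PDS5B and the condensin gene NCAPD2 were lower by 1.65 and 1.41 on the log2 scale (edgeR adjusted p = 1.5e-05 and 1.72e-05). The S phase and replication genes had 8 higher and 8 lower of 34, with a median of −0.01. Of 17 DREAM and E2F regulators 5 were higher and 4 lower, with a median of 0.41. Against these lists the members' shares were 52.4% higher and 4.76% lower, and no test of the difference between lists was made.

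**Figure D4:**
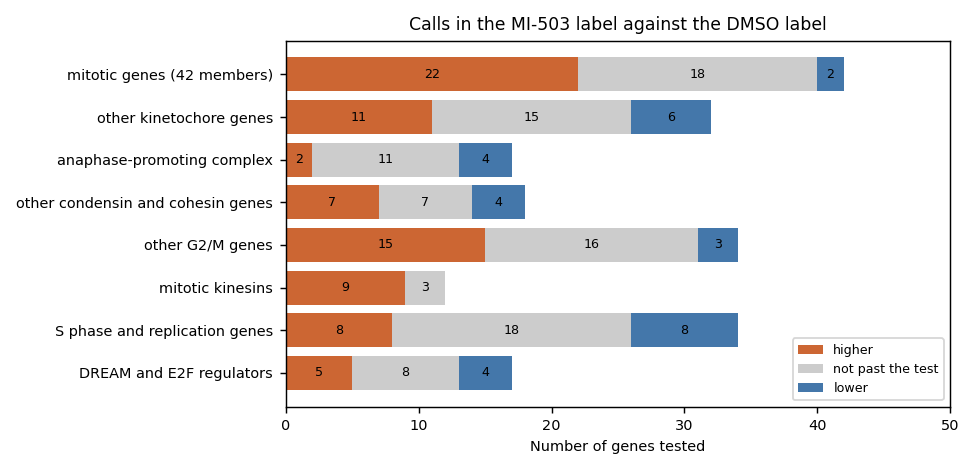
Number of genes tested (horizontal axis) that were higher, not past the test or lower with the MI-503 label in the 42 mitotic genes and 7 related lists (edgeR, adjusted p under 0.05). The mitotic genes show 22 higher and 2 lower, and the S phase and replication genes 8 higher and 8 lower.

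By position on GRCh38, all 4 members on chromosome 15 (BUB1B, CCNB2, NUSAP1 and PRC1) were higher, with a median log2 fold change of 1.27 against 0.25 over the 556 genes tested there, of which 35.1% were higher. On chromosome 20, 4 of 5 members (AURKA, CDC25B, TPX2 and UBE2C, without MYBL2) were higher, with a median of 1.34 against 0.40 over 424 genes, of which 41.3% were higher. The 4 members on chromosome 4 (CCNA2, CENPE, MAD2L1 and NCAPG) had a median of −0.30, with 1 higher, against −0.33 over 543 genes, of which 22.3% were higher. On chromosome 2, the 3 members (BUB1, CENPA and SPC25) had a median of 0.09, with 0 higher by edgeR at an adjusted or unadjusted p under 0.05, against −0.52 over 1033 genes, of which 18.9% were higher. On chromosome 1, 3 of 5 members (CDCA8, CENPF and NEK2, without CDC20 and NUF2) were higher, with a median of 0.65 against 0.0 over 1623 genes, of which 34.3% were higher. On chromosome 5, 1 of 4 members (PTTG1, without CCNB1, CDC25C and HMMR) was higher, with a median of 0.31 against 0.15 over 734 genes, of which 37.3% were higher. The other 10 chromosomes with members held 1 to 3 each. The part of gene dosage in the members' differences was not tested.

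Of the 42 members 33 had at least 2 transcripts over 10% of the gene's TPM in a label, and in 3 of them, MKI67, CENPE and NUSAP1, another transcript was on top in each label. MKI67-202, the transcript of 12716 bases, made up 34.4%, 32.4% and 35.5% of the gene's TPM in the libraries labelled DMSO and 75.2%, 73.4% and 80.0% in those labelled MI-503. MKI67-201, of 11417 bases, made up 63.6%, 67.6% and 62.4% and then 21.1%, 25.3% and 20.0%. The mean share of MKI67-202 was 42.1 percentage points higher with the MI-503 label and the shares did not overlap, whereas the summed MKI67 level did. An exact permutation test of a share in 3 against 3 libraries cannot pass, since its smallest p is 0.1. No other test of the shares was made. For CENPE the shares overlapped, with CENPE-202 at 38.0% to 55.5% and 41.8% to 71.7%. NUSAP1-202 and NUSAP1-208 led by narrow margins, at 24.9 ± 2.79% and 22.5 ± 2.72% with the DMSO label and 27.8 ± 1.34% and 32.8 ± 4.57% with the MI-503 label (SD, n = 3 each).

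Further shares that separated the labels are given as a description, since the transcripts were picked for their difference. DLGAP5-202 made up 15.3%, 21.1% and 7.68% of the gene's TPM with the DMSO label and 46.0%, 39.5% and 42.3% with the MI-503 label. INCENP-201 went the other way, at 46.9%, 43.0% and 37.3% and at 17.9%, 15.3% and 21.7%, as did ECT2-204, at 24.4 ± 5.61% and 6.45 ± 2.69% (SD, n = 3 each). CDC25C-202 was listed at 0% in 2 libraries labelled DMSO and at 10.1% in the other, and at 24.2%, 24.0% and 29.0% with the MI-503 label. In MAD2L1 the leading transcript with both labels, MAD2L1-202, is annotated as a target of nonsense-mediated decay and made up 53.9 ± 2.30% and 68.2 ± 6.99% (SD, n = 3 each). Shares rest on how salmon divides reads between transcripts that share most of their bases, and the error of that division is not part of these values.

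**Figure D5:**
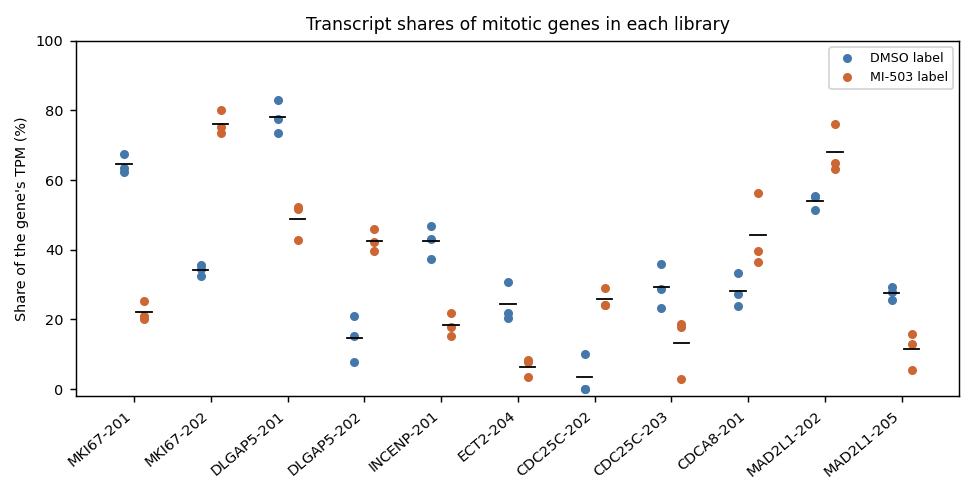
Share of the gene's TPM (percent, vertical axis) held by 11 transcripts of mitotic genes in each library, blue for the DMSO label and orange for the MI-503 label, with bars at the mean of 3 libraries. MKI67-201 and MKI67-202 stand in opposite order, at 64.5% and 34.1% on average with the DMSO label and 22.1% and 76.2% with the MI-503 label.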

How the data were processed

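RNA of 6 libraries, 3 labelled DMSO and 3 labelled MI-503, was sequenced by Novogene. The authors ran salmon on each library, and the deposited files hold estimated counts of reads per transcript, not normalized, and TPM, which the authors obtained from the same run of salmon within each library. The submitters' processing notes name GRCh38.p13 and hg38. For the salmon version, annotation release and strand setting, the sources used here give nothing. Here GENCODE release 44 matched 229321 of 232117 transcripts (98.8%), which held no less than 99.16% of a library's reads, and the estimated counts were summed per gene and rounded to whole numbers.

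The labels were compared with edgeR 4.0.16 (R 4.3.3), by the quasi-likelihood test after filterByExpr and TMM scaling (factors 0.934 to 1.053), with Benjamini-Hochberg adjustment over 16442 genes and a threshold of 0.05. The script was tested on simulated data in which few genes differed, whereas 62.9% of the genes tested differed here. Intervals are 1.96 standard errors each way, a normal approximation, and can be narrower than the test allows. That of MYBL2, 0.05 to 1.06, leaves out 0 at an unadjusted edgeR p of 0.0581. No replicate block entered the fit. DESeq2 1.42.0, limma 3.58.1 on log2(TPM + 0.1), RLE and upper-quartile scaling, no filter, at least 1 CPM in 3 libraries, length offsets, mitochondrial genes left out, a replicate block and each library left out in turn were the alternatives. The members and all lists were chosen with earlier results of these data known. Described in full were MKI67, CCNB1, CDK1, members past the test with a log2 fold change beyond 1, and the member with the smallest adjusted p of each role. Of other lists up to 3 such genes are named. A gene that this rule takes is not reported here. Other genes were named after their values were seen. Ratios and transcript shares used TPM (Python 3.11.15, pandas 2.3.3, scipy 1.17.1). Replicates are separate biological samples by label. The edgeR p-values set the difference between the labels against the spread between replicates, estimated with information shared across genes.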

Additional observations from a re-analysis of the deposited data

How the results depend on the processing

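Over the 9 alternatives that kept all 6 libraries, the members' median log2 fold change lay between 0.53 and 0.69, and it lay between 0.51 and 0.72 with 1 library left out, all positive. Counts of higher members were 22 to 23, or 21 to 23 with 1 library left out. Lower members numbered 1 to 3, with 1 where no filter on low counts was used and FOXM1 had an adjusted p of 0.0756 by edgeR. With 1 library left out they numbered 1 to 5, with 5 without DMSO replicate 1 and 1 without each other library, for which FOXM1 no longer passed. Past a log2 fold change of 2 in size, the count was 0 to 1 with 1 library left out. Of 630 combinations of member and alternative, 606 kept direction and side of the threshold, 7 lost the call, 10 gained it and 7 changed sign, the last in members that did not pass the test. These were BUB1 with upper-quartile scaling (−0.01) and with limma on TPM (−0.08), CENPA with upper-quartile scaling (−0.04), and CENPA (−0.04 to 0.18; negative without DMSO replicate 1 and, at −0.01, MI-503 replicate 1), SPC25 (−0.05 to 0.40, negative without DMSO replicate 1) and CDC20 (−0.27 to 0.06, positive without DMSO replicate 3) over the fits with 1 library left out. Upper-quartile scaling set the median of all genes at −0.101, and the members' median was then 0.53. The cause of these changes was not tested. Same-numbered libraries had correlations of their deviations across genes of −0.059, 0.132 and −0.076, and libraries of unlike number −0.184 to 0.168. The correlations thus gave no sign of pairing by number, but with 3 libraries per label they cannot decide whether samples were paired. With the number as a replicate block, 23 members were higher and 2 lower, the median was 0.64, and MYBL2 passed the test (0.61, adjusted p = 0.0212 by edgeR). The lowest member had 192 reads in a library, and 3 libraries per label limit the precision of every value.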
